A study of Mus musculus with 10 samples.

Results

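Hox genes encode homeodomain transcription factors that lie in 4 clusters in the mouse genome, Hoxa to Hoxd, and they were followed here across the serum response of primary mouse embryonic fibroblasts. Members were all probe sets of an Affymetrix array to which the platform annotation gives a single symbol naming a gene of one of these clusters. This choice gave 38 probe sets among 12422 ordinary probe sets. They covered 31 genes of the 8251 with a probe set of their own, and 31 of the 39 Hox genes in the RefSeq gene table. Another 3 probe sets carried several symbols that included a Hox gene, and 2 belonged to the antisense transcript Hoxa11os; these 5 were not counted.

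Genes of a cluster are numbered by their order along the chromosome, and genes of the same number in different clusters are paralogs. Low numbers lie at the 3′ end of a cluster and are expressed toward the head, while high numbers lie at the 5′ end and are expressed toward the tail and the ends of the limbs. Cultured fibroblasts are known to keep a Hox pattern that reflects the body site they came from, and Polycomb and Trithorax complexes are known to maintain the silent and active state of the clusters.

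The cells came from C57/BLACK6 embryos of stage e14.5 labelled ATF1 +/-, so cells of every group carried a disrupted copy of Atf1, a CREB family transcription factor, and no group without it was available for comparison. Serum-treated cultures were starved in 1% serum for 48 h and then received 10% serum for 2 h, whereas starved cultures were kept in 1% serum for the same 2 h. From each state 3 RNA pools were measured: polyribosome RNA, which carried at least 2 ribosomes, cytoplasmic RNA, and undertranslated RNA, which carried at most 1 ribosome. Serum-treated and starved cells each gave 2 polyribosome arrays, 1 cytoplasmic array and 2 undertranslated arrays, 10 arrays in 6 groups. Both gradient pools came from cells given 100 µg/ml cycloheximide for 30 min, which cytoplasmic cells did not receive. In the gradient pools, replicate 2 came from cells that had also been given 200 µM 4-thiouridine and tritiated cytidine. Gradient fractions of several cultures were pooled, so the spread between arrays is that between pools and may be partly technical.

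The arrays differed widely in brightness. The median intensity was 45.15 to 54 on polyribosome arrays, 19 to 19.1 on cytoplasmic arrays and 5.7 to 8.8 on undertranslated arrays. On each array the brightest of 19 unspiked control probe sets for bacterial and yeast transcripts set the background, which lay between 6.7 and 16.1 intensity units. The ratio of the 3′ to the 5′ control probe sets of Actb, a measure of RNA integrity and of amplification length, was 23.56 and 33.87 on serum-treated and 137.3 and 61.36 on starved undertranslated arrays, against 11.5 to 21.06 on the other arrays. The same ratio for Gapdh was not higher in the undertranslated pool, with 3.703 and 4.531 on serum-treated and 5.635 and 6.809 on starved undertranslated arrays, against 6.112 to 20.88 on polyribosome arrays and 28.39 on the serum-treated and 47.03 on the starved cytoplasmic array. All 11 fibroblast and mesenchyme markers were above background on every polyribosome array. Above it on every polyribosome array were also 9 of 9 macrophage, 5 of 7 endothelial, 4 of 5 skeletal muscle, 3 of 7 neural, 1 of 7 epithelial, 1 of 2 cartilage and 0 of 2 erythroid markers.

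The promoters of 3 members are shown as examples. They are Hoxa5, which had the smallest limma p-value of all members in the serum comparison, Hoxd8, measured by a pair of probe sets, and Hoxd13, a 5′ end gene that was above background on no array. Each runs 5′ to 3′ on the strand of its gene, from 250 bases before to 50 bases after the start in RefSeq's annotation of GRCm38.p6. Capitals mark the TATA box TATAAA, the CRE half-site TGACG, a part of the cyclic AMP response element (CRE), and the CCAAT box, each searched on both strands, so a match on the other strand shows as its reverse complement. The CArG box was searched for as well. The windows are chr6:52204538-52204837 on the minus strand for Hoxa5, chr2:74704365-74704664 on the plus strand for Hoxd8 and chr2:74667975-74668274 on the plus strand for Hoxd13.
Hoxa5: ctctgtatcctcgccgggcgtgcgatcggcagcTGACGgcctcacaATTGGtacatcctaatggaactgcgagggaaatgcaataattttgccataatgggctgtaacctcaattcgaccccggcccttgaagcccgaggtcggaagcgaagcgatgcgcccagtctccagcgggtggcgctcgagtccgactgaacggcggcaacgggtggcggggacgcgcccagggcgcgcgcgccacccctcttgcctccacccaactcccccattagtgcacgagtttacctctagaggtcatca
Hoxd8: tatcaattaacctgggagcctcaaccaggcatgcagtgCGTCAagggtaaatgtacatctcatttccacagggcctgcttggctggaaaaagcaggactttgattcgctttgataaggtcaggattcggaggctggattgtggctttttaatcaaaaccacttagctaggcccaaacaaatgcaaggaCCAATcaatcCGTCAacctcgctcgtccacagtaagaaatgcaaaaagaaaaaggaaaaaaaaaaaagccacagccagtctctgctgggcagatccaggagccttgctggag
Hoxd13: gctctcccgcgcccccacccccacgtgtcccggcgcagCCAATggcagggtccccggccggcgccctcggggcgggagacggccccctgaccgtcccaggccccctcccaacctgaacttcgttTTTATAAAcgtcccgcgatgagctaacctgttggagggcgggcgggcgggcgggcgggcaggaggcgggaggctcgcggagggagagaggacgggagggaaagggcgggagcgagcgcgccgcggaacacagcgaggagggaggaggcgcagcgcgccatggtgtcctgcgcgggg
The Hoxa5 window held 1 CRE half-site and 1 CCAAT box, and the Hoxd8 window 2 half-sites and 1 CCAAT box. The Hoxd13 window held 1 CCAAT box and TATAAA on both strands, where the matches overlap. A RefSeq window was found for 20 of the 31 measured genes, 22 windows in all, and was compared with 32851 windows of the same length over all genes. TATAAA occurred in 13.6% of the Hox windows and in 13.6% of all windows, TGACG in 27.3% and 20.8%, CCAAT in 59.1% and 37.4%, the Hox core TAATTA in 9.09% and 5.29% and the E-box CACGTG in 18.2% and 7.15%. The full CRE, TGACGTCA, to which Atf1 is known to bind, was in 0 of 22 Hox windows and in 1.79% of all windows, and the CArG box, the site of serum response factor, in 0 of 22 and 1.63%. The median GC content was 58.7% in the Hox windows and 52.7% in all windows. These letter matches describe the windows and were not tested against the array values.

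On all 4 polyribosome arrays, 18 of the 31 measured genes were above background with at least 1 probe set. By paralog number these were 3 of 5 genes of groups 1 to 3, 11 of 14 of groups 4 to 8, 4 of 8 of groups 9 to 11, and 0 of 4 of groups 12 and 13. By cluster they were 5 of 10 Hoxa genes (Hoxa2, Hoxa4, Hoxa5, Hoxa9 and Hoxa10), 6 of 9 Hoxb genes (Hoxb1, Hoxb3, Hoxb5, Hoxb6, Hoxb7 and Hoxb8), 4 of 5 Hoxc genes (Hoxc4, Hoxc5, Hoxc6 and Hoxc8) and 3 of 7 Hoxd genes (Hoxd8, Hoxd10 and Hoxd11). Hoxa4 and Hoxb8 entered this count only through probe sets of a kind described next, without which it was 16, with 3 of 5 genes of groups 1 to 3, 9 of 14 of groups 4 to 8, 4 of 8 of groups 9 to 11, and 0 of 4 of groups 12 and 13. No test of position in the cluster was made.

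**Figure D1:**
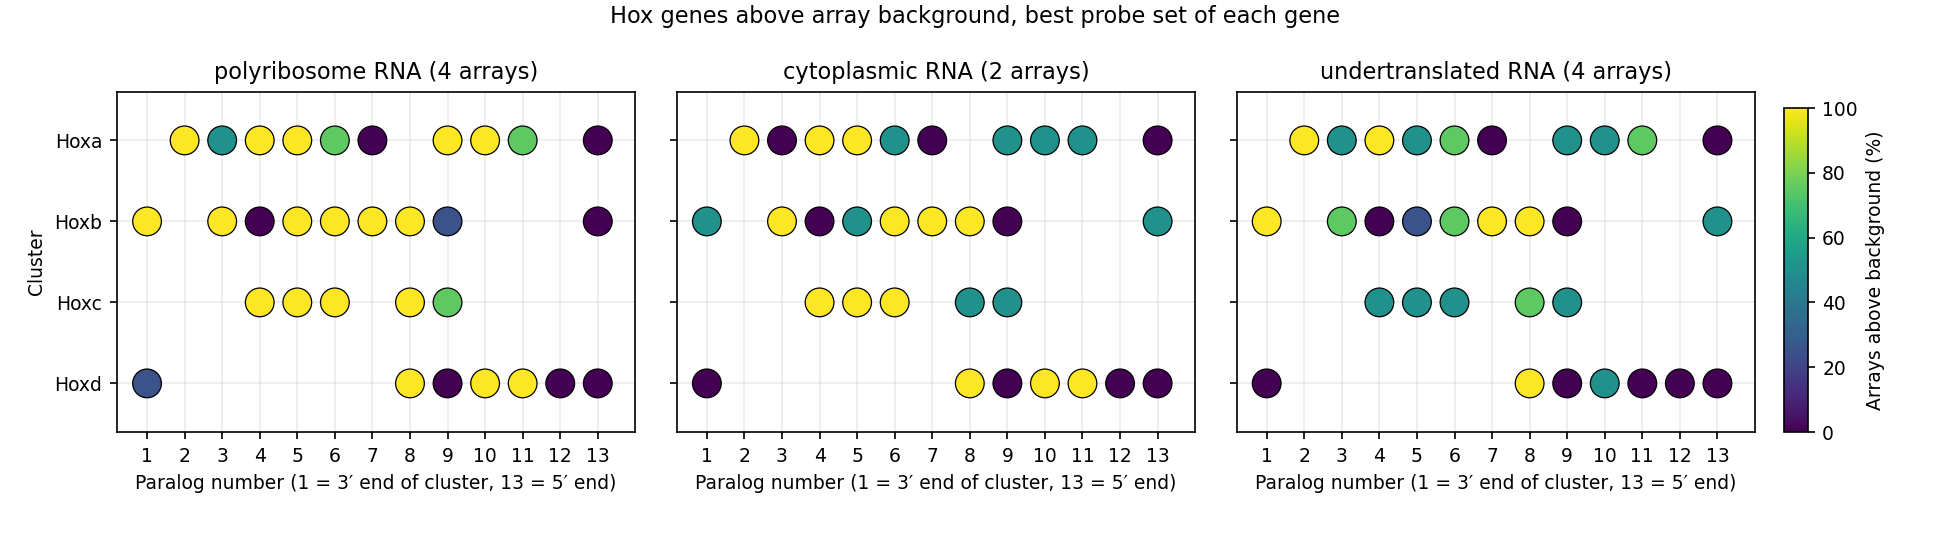
Measured Hox genes by cluster (vertical axis) and paralog number (horizontal axis) in the 3 RNA pools, coloured by the percentage of arrays on which the gene's brightest probe set was above background. The 14 genes of paralog groups 4 to 8 are mostly at 100% in polyribosome RNA, and the 4 genes of groups 12 and 13 at 0%; positions without a circle had no probe set.

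The genes at the 5′ ends were dim. Hoxd13, which patterns digits and the genital tubercle, had intensities of 2.7 and 2.3 on serum-treated and 3.2 and 2.4 on starved polyribosome arrays, 1.2 on the serum-treated and 1.4 on the starved cytoplasmic array, and 1.7 and 1 on serum-treated and 0.8 and 0.9 on starved undertranslated arrays. All 10 values lay below background. Hoxa13, its paralog in digits and hindgut, reached at most 8.3 and was likewise above background on no array. The other genes on no array were Hoxa7, Hoxb4, Hoxd9 and Hoxd12, which made 6 of 31 genes. Hoxb13, known from the tail and the prostate, was above background on 0 polyribosome, 1 cytoplasmic and 2 undertranslated arrays, with a highest intensity of 13.3. A probe set below background gives only a bound on its transcript, and in such bulk RNA fewer cells of a type and less RNA per cell cannot be told apart.

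Only 5 genes were above background on all 10 arrays: Hoxa2, which patterns the second branchial arch, Hoxa4, Hoxb7, Hoxb8 and Hoxd8. Counted by probe set, 5 of 38 Hox probe sets (13.16%) were above it on all 10 arrays, against 3624 of all 12422 (29.17%), and 11 (28.95%) were above it on none, against 2126 (17.11%). Within groups, a probe set was counted where it was above background on every array. This gave 22 Hox probe sets (57.89%) in serum-treated polyribosome RNA, against 67.11% of all probe sets, and 21 (55.26%) in starved polyribosome RNA, against 64.99%. In cytoplasmic RNA it gave 15 (39.47%) on the serum-treated array, against 56.26%, and 23 (60.53%) on the starved array, against 64.68%. In undertranslated RNA it gave 10 (26.32%) for serum-treated cells, against 34.57%, and 12 (31.58%) for starved cells, against 45.69%. The Hox share was thus below that of all probe sets in each of the 6 groups. The background of the serum-treated cytoplasmic array, 13.8, was higher than the 8.2 of the starved one.

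**Figure D2:**
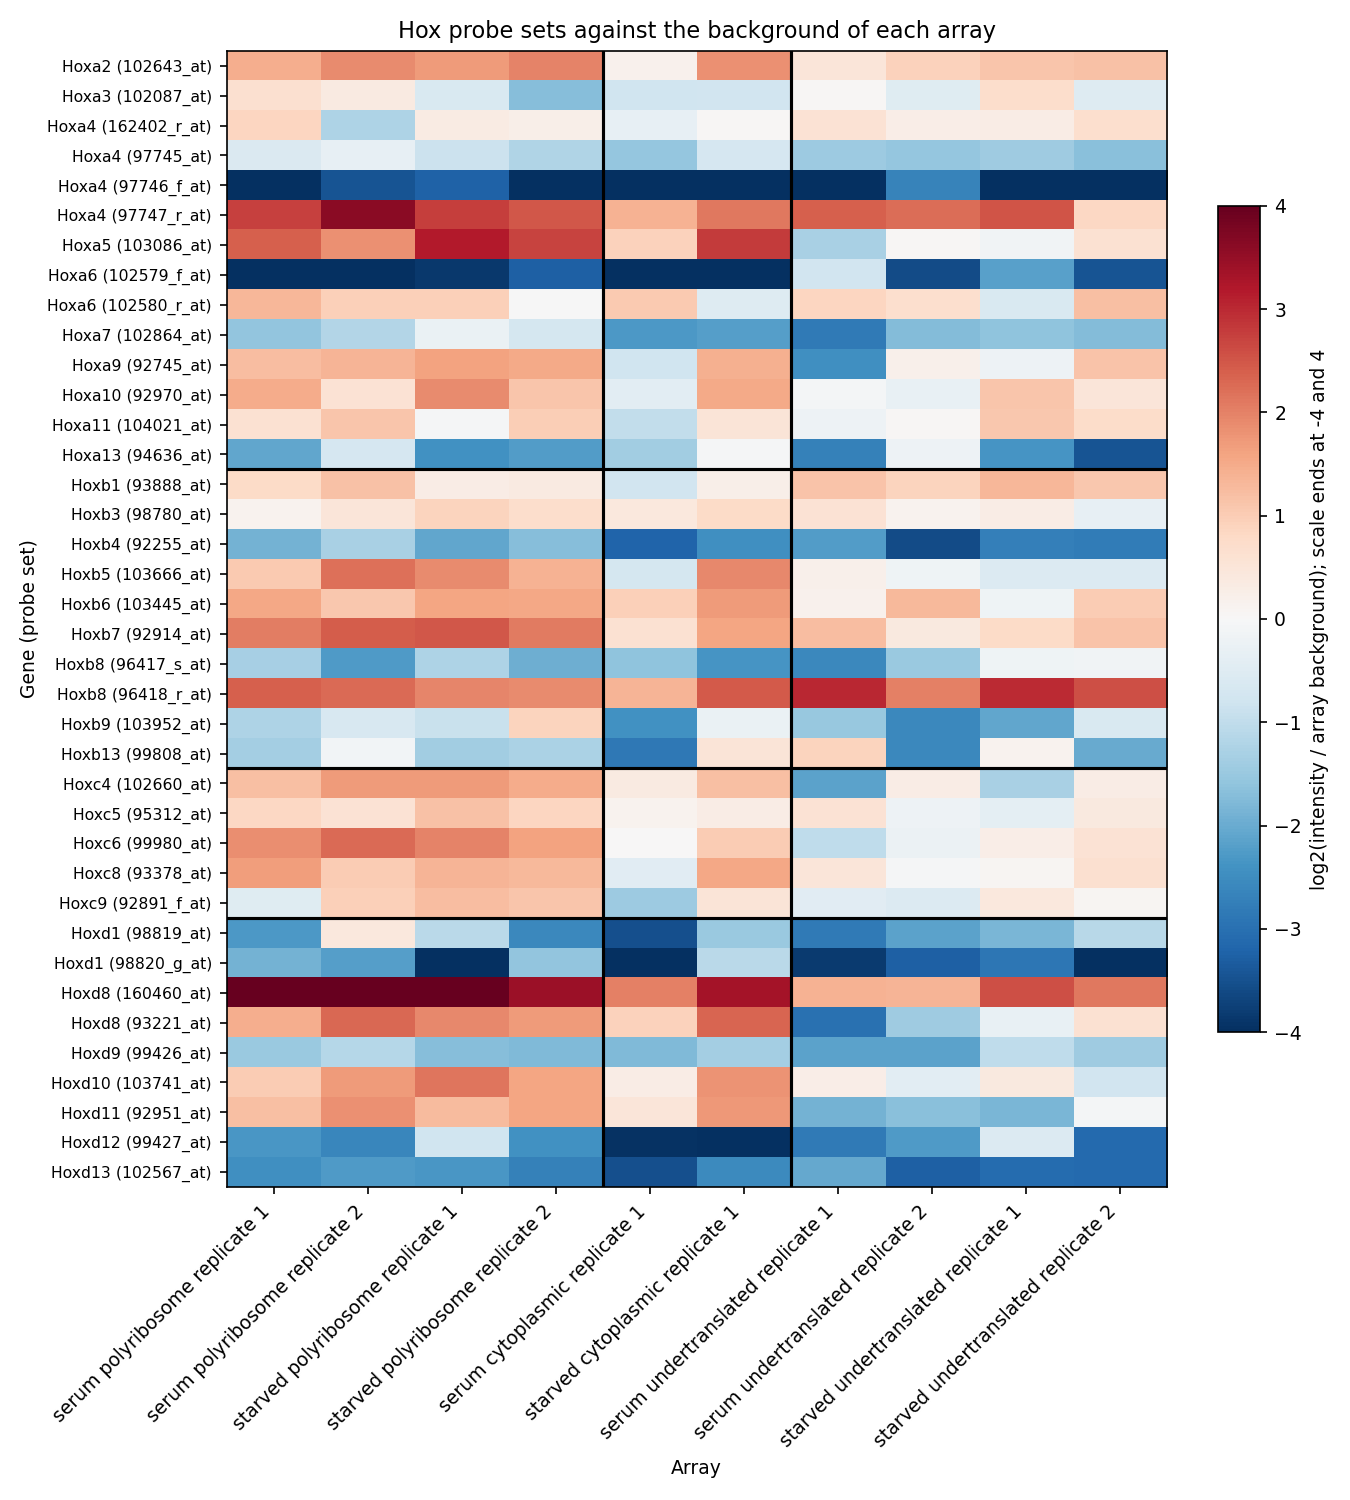
Intensity of each of the 38 Hox probe sets divided by the background of the array, on a log2 colour scale, with arrays in columns and probe sets in rows ordered by cluster and paralog number; white is the level of background and the scale ends at -4 and 4. Hoxd8 (160460_at), Hoxa4 (97747_r_at) and Hoxb8 (96418_r_at) are red in every column, and Hoxd12 and Hoxd13 are blue in every column.

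Probe sets of the same gene did not give the same answer. By the array maker's naming, the ending _r_at marks a probe set for which design rules were relaxed, _f_at one that may match a gene family and _s_at one that may match several transcripts. Of the 38 members, 4 were _r_at and 3 _f_at, and 5 genes had more than 1 probe set. Hoxa4, a gene of the hindbrain and neck region, had 97747_r_at above background on all 10 arrays and 162402_r_at on 8, but 97745_at and 97746_f_at on none. Hoxa6 had 102580_r_at above background on 7 arrays and 102579_f_at on none, and both are annotated to the same sequence. Hoxb8, known for roles in spinal cord, behaviour and blood progenitors, had 96418_r_at above background on all 10 arrays and 96417_s_at on none, again from a single annotated sequence. For these 3 genes the level therefore rests on the _r_at probe sets, which may bind other transcripts.

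The pair of probe sets for Hoxd8 lay above background together on polyribosome and cytoplasmic arrays. With 160460_at, intensities were 276.9 and 195.3 on serum-treated and 339.7 and 165.2 on starved polyribosome arrays, 55.3 on the serum-treated and 81.5 on the starved cytoplasmic array, and 18.6 and 24.6 on serum-treated and 40.1 and 33.4 on starved undertranslated arrays. With 93221_at, they were 40.3 and 53.6 on serum-treated and 61.3 and 50.7 on starved polyribosome arrays, 26 on the serum-treated and 41.4 on the starved cytoplasmic array, and 0.9 and 3.6 on serum-treated and 5.4 and 11.8 on starved undertranslated arrays. The first was above background on all 10 arrays and the second on 7, missing all but 1 of the undertranslated ones. Hoxd1 was above background with 98819_at on 1 polyribosome array and with 98820_g_at on none. Hoxd9 and Hoxd10 are annotated to a single sequence through separate probe sets, 99426_at on no array and 103741_at on 8.

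**Figure D3:**
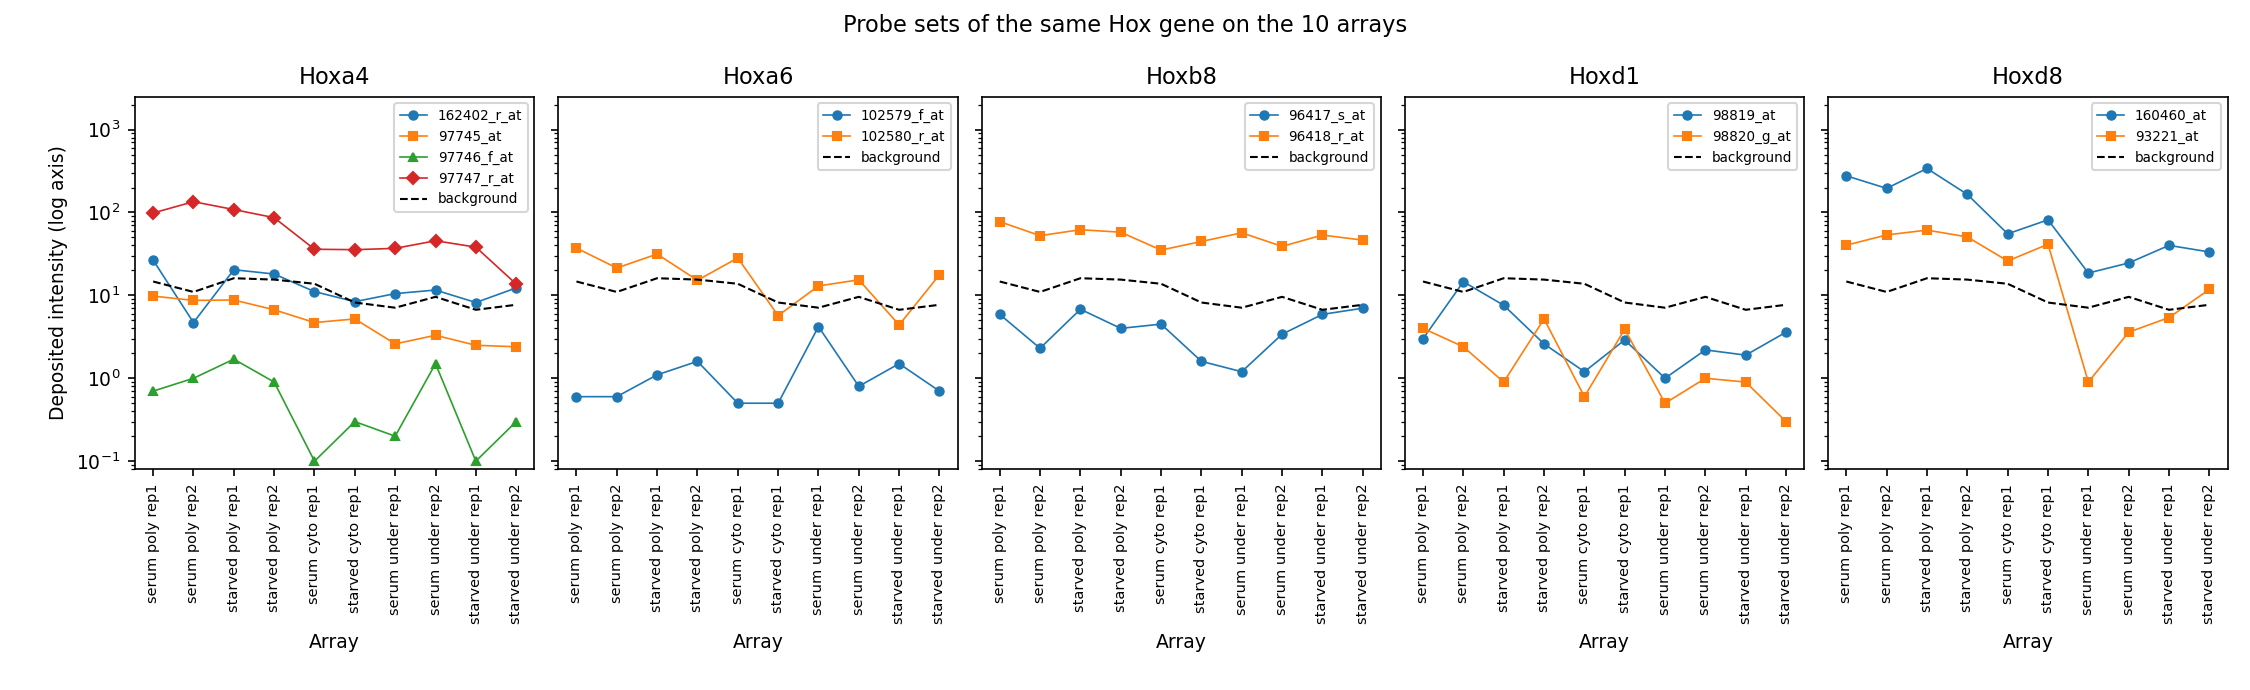
Deposited intensity (log axis) on the 10 arrays for the 5 Hox genes with more than 1 probe set, one line per probe set, with the background of each array dashed. Probe sets of Hoxa4, Hoxa6 and Hoxb8 lie on both sides of the background line, whereas those of Hoxd8 are both above it on all polyribosome and cytoplasmic arrays.

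The serum comparison asked which transcripts changed 2 h after 10% serum. No Hox gene passed its test, while most tested members had lower values in serum-treated cells. The fit used log2 intensities, quantile normalized over the 10 arrays, for the 6 polyribosome and cytoplasmic arrays with the pool as a factor, and the 9316 probe sets above the 25th percentile of mean level. These included 25 Hox probe sets of 23 genes, and 13 were too dim. By limma with Benjamini-Hochberg adjustment, 0 of the 25 Hox probe sets were called, against 83 of 9316 (0.891%), 62 higher and 21 lower in serum-treated cells; with the replicate number as a block, 0 of 25 and 152 of all were called. At an unadjusted p under 0.05 there were 7 Hox probe sets and 1096 of all. Of the 25, 20 (80%) had a difference below 0, against 51.32% of all, and the median log2 difference was -0.22 for Hox and -0.01 for all. The 3 arrays a state limit what this comparison can call, and the count over all probe sets lay between 5 and 113 when single arrays were left out, 5 without either cytoplasmic array.

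Hoxa5, which acts in the lung, the neck and the upper thorax, came nearest to the threshold. Its intensity was 76.7 and 39.2 on serum-treated polyribosome arrays, against 146.2 and 101.2 on starved ones. It was 26.2 on the serum-treated cytoplasmic array, against 56.7 on the starved one, and 2.9 and 9.9 on serum-treated undertranslated arrays, against 6.1 and 11.7 on starved ones. Serum-treated values were below all starved ones within the polyribosome and within the cytoplasmic pool, while in undertranslated RNA the states overlapped near background. The log2 difference was -0.81 ± 0.22 (SE, 3 arrays a state; limma adjusted p = 0.180).

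Hoxd10, a gene of the lumbar spinal cord and the limb, had 29.5 and 35.5 on serum-treated polyribosome arrays, against 70.8 and 46.2 on starved ones, and 16.8 on the serum-treated cytoplasmic array, against 28.7 on the starved one. Undertranslated values were 8.5 and 7.2 in serum-treated cells, against 8.8 and 4.5 in starved cells. Serum-treated values lay below the starved ones in both brighter pools, and the difference of -0.58 ± 0.20 (SE) did not pass (limma adjusted p = 0.302). Hoxa2 had 40 and 40.4 on serum-treated polyribosome arrays, against 51.9 and 60.8 on starved ones, and 15.4 on the serum-treated cytoplasmic array, against 28.9 on the starved one. Its undertranslated values were 9.9 and 18.3 in serum-treated cells, against 14.6 and 17.3 in starved cells, and overlapped. Its difference in the 6 brighter arrays was -0.44 ± 0.21 (limma adjusted p = 0.462).

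Hoxb3, a gene of the posterior hindbrain, had 16.2 and 15.4 on serum-treated polyribosome arrays, against 29.9 and 25 on starved ones, but 18.4 on the serum-treated cytoplasmic array, against 13.9 on the starved one. The pools thus differed in direction, and the fitted difference was -0.26 ± 0.26. Hoxb6, known from the trunk and limb bud, had 43.3 and 23.3 on serum-treated polyribosome arrays, against 48.5 and 45.5 on starved ones, and 26.6 on the serum-treated cytoplasmic array, against 26.8 on the starved one. Its difference of -0.22 ± 0.24 became 0.009 without serum-treated polyribosome replicate 2. Hoxa4 (97747_r_at) had 98.7 and 134.9 on serum-treated polyribosome arrays, against 108.5 and 86.6 on starved ones, and 36 on the serum-treated cytoplasmic array, against 35.6 on the starved one, so the deposited intensities of its states overlapped on polyribosome arrays. On the normalized scale they did not overlap within a pool, and the difference was 0.23 ± 0.19 (limma adjusted p = 0.697). The probe sets of Hoxd8, whose intensities are given above, differed by -0.06 ± 0.22 (160460_at) and -0.25 ± 0.20 (93221_at).

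Hoxc4, of the neck and upper trunk, had 34 and 36.2 on serum-treated polyribosome arrays, against 52.9 and 43.1 on starved ones, and 17.8 on the serum-treated cytoplasmic array, against 18.8 on the starved one. Hoxd11, which with Hoxa11 shapes the forearm, had 33.7 and 39.1 on serum-treated polyribosome arrays, against 38.9 and 46.3 on starved ones, and 19.5 on the serum-treated cytoplasmic array, against 27 on the starved one. Both had lower values in serum-treated cells on the normalized scale in each pair, by -0.21 ± 0.20 and -0.19 ± 0.21, which is about the size of the error. Among members not above background on all 6 arrays, Hoxc9 (92891_f_at), of the thorax, differed by -0.94 ± 0.28 (limma adjusted p = 0.224), Hoxa9 by -0.66 ± 0.25 (0.346) and Hoxa10 by -0.69 ± 0.30 (0.415). Hoxa6 (102580_r_at) and Hoxa3 had higher values in serum-treated cells, 0.86 ± 0.36 (0.408) and 0.79 ± 0.34 (0.415). Hoxa3, known from the thymus and the pharyngeal arches, was above background on 2 of 3 serum-treated arrays and on no starved array of the 6. Its 1.053-fold against background is therefore not a firm lower bound.

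**Figure D4:**
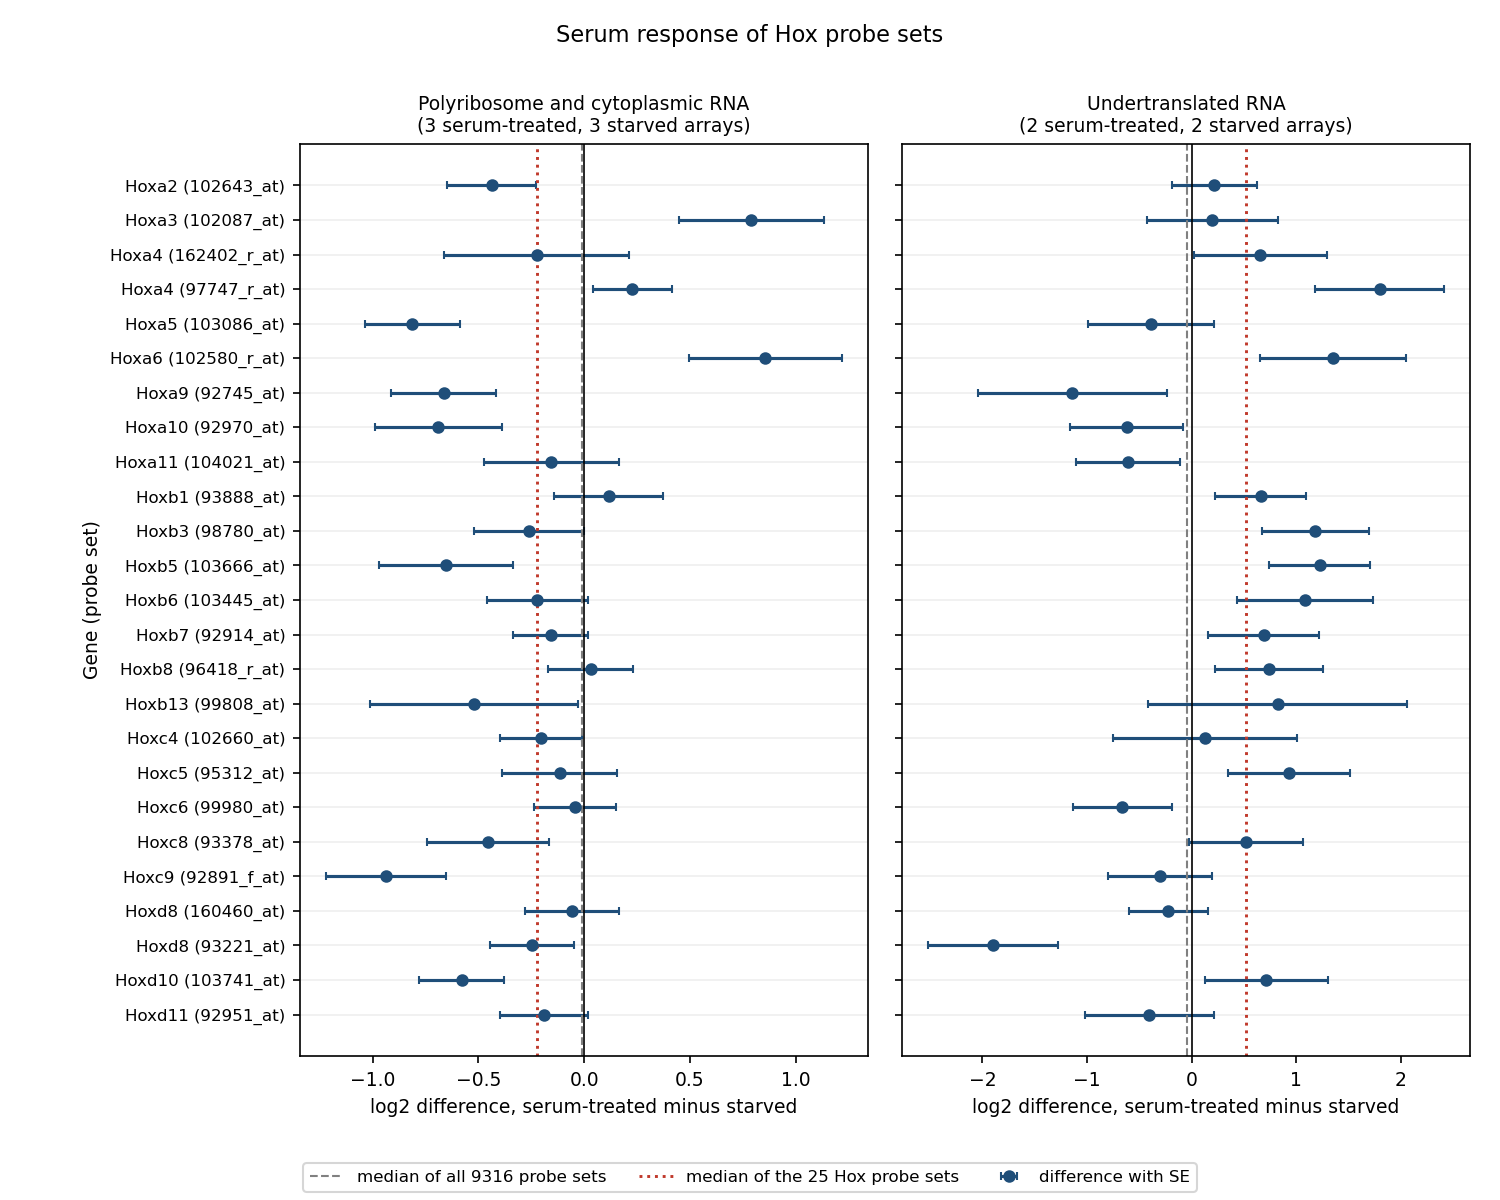
Log2 difference, serum-treated minus starved (horizontal axis), with its standard error for the 25 tested Hox probe sets, in the 6 polyribosome and cytoplasmic arrays (left) and in the 4 undertranslated arrays (right); dashed and dotted lines mark the medians of all and of Hox probe sets. Most points on the left lie below 0 around a Hox median of -0.22, and those on the right scatter more widely around 0.52; none passed the adjusted threshold.

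Matched by replicate number, the serum-treated and starved arrays gave 3 pairs in these pools. The median Hox log2 difference was -0.05 and -0.21 in the polyribosome pairs and -0.36 in the cytoplasmic pair, against -0.01 for all probe sets in each. Of the 25 members, 9 (36%) were lower in serum-treated cells in all 3 pairs, namely Hoxa2, Hoxa5, Hoxa9, Hoxa10, Hoxb7, Hoxc4, Hoxc9, Hoxd10 and Hoxd11, against 19.8% of all probe sets. Among members above background on all 6 arrays it was 6 of 14, against 20.46% of all such probe sets. Higher in all 3 pairs were Hoxa3, Hoxa4 (97747_r_at) and Hoxa6, 3 of 25 (12%), against 18.1% of all. These shares are descriptions of 3 pairs. Hox genes of a cluster share regulation and so are not independent of each other.

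The macrophage marker list moved with the serum state in the same arrays. Its summed intensity was 4047 to 5060 on serum-treated polyribosome arrays, against 1293 to 1591 on starved ones, and 912 on the serum-treated cytoplasmic array, against 409.2 on the starved one. Of its 9 genes, 6 rose with serum at the adjusted threshold, with a median log2 difference of 1.27 over the list. All 9 were above background on every polyribosome array. The summed intensities of other marker lists were also higher in serum-treated cells without overlap. The skeletal muscle sum was 373.9 to 392.8 on serum-treated polyribosome arrays, against 256.9 to 308.8 on starved ones, and 200.9 on the serum-treated cytoplasmic array, against 114.3 on the starved one. The neural sum was 723.2 to 1022 on serum-treated polyribosome arrays, against 567.1 to 664.8 on starved ones, and 469.3 on the serum-treated cytoplasmic array, against 237.7 on the starved one. The epithelial sum was 171.2 to 183.2 on serum-treated polyribosome arrays, against 137 to 149.8 on starved ones, and 115.3 on the serum-treated cytoplasmic array, against 53.8 on the starved one. The cartilage sum was 34 to 38.6 on serum-treated polyribosome arrays, against 30.7 to 32.2 on starved ones, and 29.4 on the serum-treated cytoplasmic array, against 19.7 on the starved one. Of their tested members 0 of 5, 0 of 3, 0 of 4 and 0 of 2 were called with serum. Their median log2 differences were 0.43, -0.09, 0.72 and -0.09, in that order, so the higher neural and cartilage sums did not hold for the typical member. In the neural list Tubb3 differed by 0.89, but Sox2 by -0.59 and Gfap by -0.09. In the cartilage list Acan differed by 0.35, but Col2a1 by -0.52. The part of these lists in the Hox values was not tested.

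Within the polyribosome pool alone, in the fit of the 8 gradient arrays, limma called 0 of 25 Hox probe sets and 0 of 9316 in all (0%). At an unadjusted p under 0.05 there were 0 Hox probe sets and 160 of all, and the median log2 difference was -0.17 for Hox and -0.01 for all. With the 4 polyribosome arrays fitted alone, 0 Hox and 5 of all probe sets were called.

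In undertranslated RNA the serum comparison likewise called 0 of 25 Hox probe sets, against 100 of 9316 (1.07%), which was 53 with the replicate number as a block. At an unadjusted p under 0.05 there were 4 Hox probe sets and 1755 of all. The median Hox log2 difference, 0.52, was above the -0.04 of all probe sets, and 16 of 25 were above 0. On the intensities as deposited the Hox median was -0.08 and that of all -0.42, and with arrays centred on their medians 0.15 and -0.19. The sign of the Hox median thus depends on the scaling. It exceeded that of all in each, but centring shifts whole arrays and cannot change the gap found as deposited. The 2 pairs also disagreed, with Hox medians of 0.57 in replicate 1 and -0.11 in replicate 2. Without serum-treated undertranslated replicate 2 the fit called 7 Hox probe sets and 2296 of all.

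The members nearest to the threshold in this pool were a mixed group. Hoxa4 (97747_r_at) had 36.9 and 45.6 on serum-treated undertranslated arrays, against 38.2 and 13.7 on starved ones, and the normalized difference was 1.80 ± 0.62 (SE, 2 arrays a state; limma adjusted p = 0.180). Hoxb3 had 10.7 and 10.6 on serum-treated arrays of this pool, against 8.2 and 6.1 on starved ones (1.18 ± 0.51, adjusted p = 0.262). Hoxb5, which acts in gut nerves and lung, had 8.1 and 8.6 on serum-treated arrays, against 4.6 and 5.3 on starved ones (limma adjusted p = 0.226). It was above background on 1 of 2 serum-treated arrays and on no starved array of the pool. Its 1.534-fold against background is therefore not a firm lower bound. Hoxd8 (93221_at) differed by -1.90 ± 0.62 (adjusted p = 0.166) on the normalized scale, but it was above background on no serum-treated and 1 starved array of the pool, and background sets no bound above 1-fold on it. The other probe set of this gene, 160460_at, was above background on all 4 and differed by -0.22 ± 0.38. The Actb and Gapdh 3′ to 5′ ratios given above were both lower on the serum-treated arrays of this pool, and their part in these values was not tested.

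The change of the serum response between polyribosome and undertranslated RNA was tested as an interaction. limma called 0 of 25 Hox probe sets and 0 of 9316 in all (0%), with 1 Hox probe set and 722 of all at an unadjusted p under 0.05. That member was Hoxb3, whose serum difference in polyribosome RNA minus that in undertranslated RNA was -1.74 on the log2 scale (limma adjusted p = 0.624), with intensities as given above. The median interaction was -0.59 for Hox and 0.07 for all probe sets.

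The comparison of polyribosome with undertranslated RNA asks how much of a transcript sits on several ribosomes relative to other transcripts. After quantile normalization Hox probe sets were shifted toward the undertranslated pool: 9 of 25 were called lower in polyribosome RNA and 0 higher. Over all probe sets 5044 of 9316 (54.1%) were called, 25.3% of all toward undertranslated RNA. The median log2 difference was -0.90 for Hox and 0.05 for all, and 19 of 25 Hox probe sets (76%) were below 0, against 48.71% of all. This direction holds relative to other transcripts only. On serum-treated undertranslated arrays the median of all probe sets, 5.7 and 8, lay below background, 7.1 and 9.6, so ranks of dim probe sets there are uncertain. Hox probe sets were not set against equally dim ones, and the part of dimness in this shift was not tested. On the intensities as deposited, all 24 Hox probe sets tested were above 0 and 20 were called higher in polyribosome RNA. Over all probe sets 8558 were called higher and 37 lower on that scale, and the median was 1.71 for Hox and 3.02 for all. With arrays centred on their medians, 10 Hox probe sets were called lower and 1 higher, against 2094 lower and 4250 higher of all. The medians were -0.75 for Hox and 0.56 for all. The Hox median minus that of all probe sets was -0.955 when quantile normalized and -1.306 as deposited. Median centring shifts whole arrays, so its gap of -1.306 was the same by construction.

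Hoxb8 (96418_r_at) had the largest difference of the 25. Its intensity was 77.5 and 52.5 on serum-treated and 62 and 57.8 on starved polyribosome arrays, and 56.9 and 39 on serum-treated and 53.4 and 46.4 on starved undertranslated arrays. The deposited values overlapped, while the median of all probe sets was 45.15 to 54 on these polyribosome and 5.7 to 8.8 on these undertranslated arrays. Normalized log2 values were 4.55 to 4.96 in polyribosome and 7.22 to 9.01 in undertranslated RNA and did not overlap. The difference was -3.17 ± 0.37 (SE, 4 arrays a pool; limma adjusted p = 2.36e-04).

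Hoxb1, which patterns the fourth rhombomere of the hindbrain, had intensities of 24.9 and 24.9 on serum-treated and 19.7 and 20 on starved polyribosome arrays, and 15.7 and 17.9 on serum-treated and 16.7 and 16.4 on starved undertranslated arrays. Each of its 8 gradient values was above background, the polyribosome ones by less than a factor of 3. On the normalized scale it lay at 3.30 to 3.71 in polyribosome and 5.49 to 6.62 in undertranslated RNA, a difference of -2.43 ± 0.31 (limma adjusted p = 3.60e-04). Hoxa2, whose intensities are given above, lay at 4.22 to 4.72 in polyribosome and 5.56 to 6.03 in undertranslated RNA, a difference of -1.30 ± 0.29 (adjusted p = 0.00569). For both genes the normalized pools did not overlap. Hoxa4 (97747_r_at) had undertranslated intensities of 36.9 and 45.6 in serum-treated and 38.2 and 13.7 in starved cells, and its normalized values overlapped, with a difference of -1.84 ± 0.44 (adjusted p = 0.00766).

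The 5 other calls had at least 1 array of the 8 below background. Hoxa4 (162402_r_at) had 26.6 and 4.7 on serum-treated and 20.4 and 18.1 on starved polyribosome arrays, and 10.5 and 11.6 on serum-treated and 8.2 and 12.3 on starved undertranslated arrays (-1.95 ± 0.45). Hoxa6 (102580_r_at) had 37.2 and 21.4 on serum-treated and 31.5 and 15.2 on starved polyribosome arrays, and 13 and 15.4 on serum-treated and 4.4 and 17.7 on starved undertranslated arrays (-1.59 ± 0.50). Its normalized values overlapped between the pools, unlike those of Hoxa4 (162402_r_at). Hoxa3 had 22.8 and 14.2 on serum-treated and 10.5 and 4.8 on starved polyribosome arrays, and 7.3 and 6.9 on serum-treated and 10.8 and 5.4 on starved undertranslated arrays (-1.54 ± 0.44). Hoxa11, which shapes forearm and kidney, had 22.4 and 23.9 on serum-treated and 15.5 and 30.9 on starved polyribosome arrays, and 6.2 and 10 on serum-treated and 14 and 12.9 on starved undertranslated arrays (-1.42 ± 0.35). Neither gene's normalized values overlapped between the pools. Hoxb3 completed the set with -1.28 ± 0.36. The limma adjusted p of these 5 lay between 0.00662 and 0.0247.

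**Figure D5:**
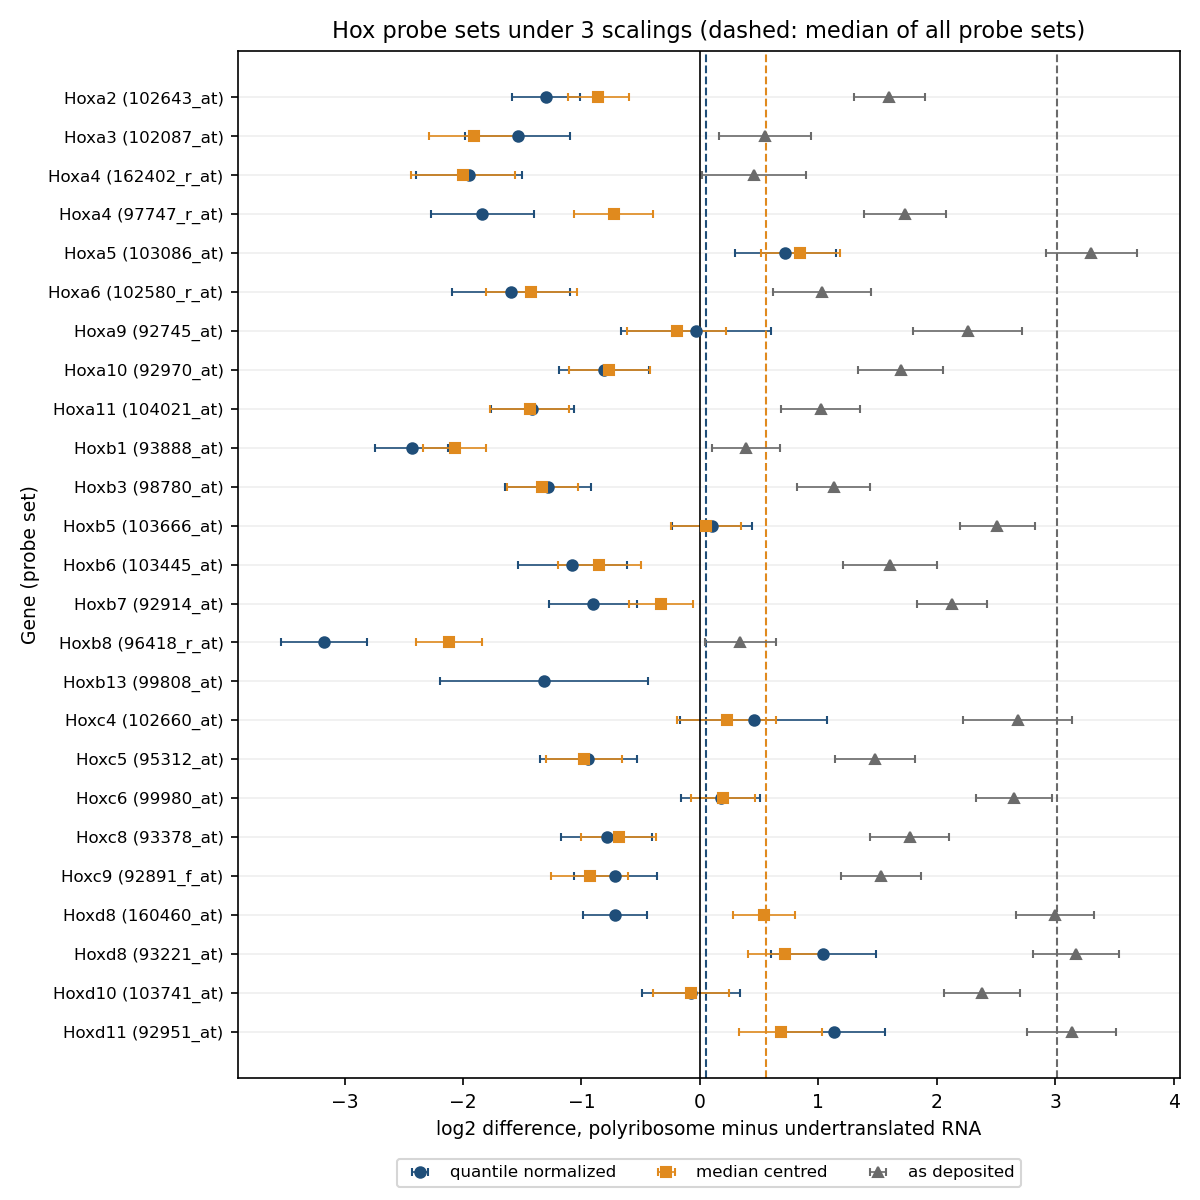
Log2 difference, polyribosome minus undertranslated RNA (horizontal axis), with its standard error for the tested Hox probe sets under quantile normalization, median centring and as deposited; dashed lines mark the median of all probe sets under the same scaling. Hox values lie mostly left of their own dashed line, and the sign against 0 turns from mostly negative when normalized to positive for all 24 as deposited.

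The count of calls depended on which members and arrays were used. Without _r_at and _f_at probe sets 5 calls were left, Hoxa2, Hoxa3, Hoxa11, Hoxb1 and Hoxb3. Restricted to members above background on all 8 arrays there were 4, Hoxa2, Hoxa4 (97747_r_at), Hoxb1 and Hoxb8. The other members above it on all 8, Hoxb7 and Hoxd8 (160460_at), were not called. Both counts leave members out of the same fit and change the call of no member kept. Without serum-treated undertranslated replicate 2 the count was 16 of 25, while calls over all probe sets rose as well, from 5044 to 6026. Hoxa6, Hoxb3, Hoxa3 and Hoxa11 each lost the call without at least 1 of the polyribosome arrays, with adjusted p between 0.0519 and 0.0927.

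Members that did not pass included both probe sets of Hoxd8, which had opposite signs. 160460_at differed by -0.72 ± 0.27 (limma adjusted p = 0.0501, and 0.0223 with the replicate number as a block) and 93221_at by 1.04 ± 0.44 (0.0748). Hoxb7, of the trunk and kidney, had intensities of 60.9 and 59.1 on serum-treated and 90.6 and 65.1 on starved polyribosome arrays, and 16.8 and 12.7 on serum-treated and 11.5 and 17.1 on starved undertranslated arrays. It was above background on all 10 arrays and differed by -0.90 ± 0.37 (0.0695). Hoxd11 was above background on all 4 polyribosome arrays and on no undertranslated one, where it had 1.9 and 3 in serum-treated and 1.9 and 7.3 in starved cells. Its normalized difference was 1.13 ± 0.44 (0.0556, and 0.0493 with the replicate number as a block), and background sets no bound above 1-fold on it. Hoxc6 differed by 0.18 ± 0.33, Hoxb5 by 0.10 ± 0.34 and Hoxa9 by -0.03 ± 0.64.

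Polyribosome RNA was also set against cytoplasmic RNA, where the pool and the cycloheximide given to polyribosome cells cannot be told apart. limma called 0 of 25 Hox probe sets, against 2465 of 9316 (26.5%), and 4 were under 0.05 unadjusted, against 3647 of all. These 4 were Hoxb8 (96418_r_at), -0.57 ± 0.21 (adjusted p = 0.0773), Hoxd8 (93221_at), -0.56 ± 0.21 (0.0816), Hoxb3, -0.73 ± 0.28 (0.0843), and Hoxb6, -0.63 ± 0.25 (0.0965). The median was -0.12 for Hox and 0.00 for all probe sets. On the intensities as deposited, 17 of 24 were called higher in polyribosome RNA, at a median of 1.08 for Hox and 1.31 for all. On that scale 7066 of all probe sets were called higher and 87 lower.

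Genes that act with or on the clusters, and a list of other limb and body-wall genes, had no calls with serum, where 0.891% of all probe sets were called. In the 6-array fit limma called 0 members of 5 tested TALE homeobox cofactors, 17 Polycomb subunits and 8 Trithorax and MLL complex subunits. It also called 0 of 19 other homeobox, T-box and Twist genes of limb and body wall. Of 9 genes of retinoic acid signalling, which is known to activate 3′ Hox genes, 0 were called. At an unadjusted p under 0.05 these lists had 2, 4, 0, 5 and 1 members, in that order, against 11.8% of all probe sets. The median log2 differences of these lists were -0.39, -0.25, -0.16, -0.20 and 0.08, in that order, against -0.01 for all probe sets. Meis1, a DNA binding partner of Hox proteins, had 29.3 and 12.2 on serum-treated polyribosome arrays, against 52.5 and 23.9 on starved ones, and 5.2 on the serum-treated cytoplasmic array, against 19.6 on the starved one (-0.93 ± 0.35, limma adjusted p = 0.350). Twist1, a mesenchymal regulator, had 369.3 and 283.6 on serum-treated polyribosome arrays, against 1173.9 and 401 on starved ones, and 197.3 on the serum-treated cytoplasmic array, against 718.1 on the starved one (-1.12 ± 0.30, adjusted p = 0.170). In both genes the polyribosome and cytoplasmic values were lower in serum-treated cells in each replicate pair, and for Meis1 the polyribosome arrays of the states overlapped.

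Prrx1, a limb mesenchyme homeobox gene, had 35.2 and 30.3 on serum-treated polyribosome arrays, against 50.2 and 28 on starved ones, and differed by -0.20 ± 0.23 in the 6-array fit. Ezh2, the histone methyltransferase of Polycomb complex PRC2, had 133.2 and 72.6 on serum-treated polyribosome arrays, against 198.6 and 88.8 on starved ones, and differed by -0.17 ± 0.25. The states overlapped for both. The receptor gene Rarg was above background on no array. The Cdx, Evx and Gbx homeobox genes had 0 of 6 measured members bright enough to be tested, and 4 were above background on no array.

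Between polyribosome and undertranslated RNA, 28.8% of all probe sets were called higher and 25.3% lower in polyribosome RNA, and the lists had calls in both directions. The list of homeobox, T-box and Twist genes of limb and body wall had 6 of 19 members called lower and 1 higher in polyribosome RNA. Its median was -0.31, and Dlx2 differed by -1.87 ± 0.27, Twist1 by -1.24 ± 0.30 and Msx2 by 1.58 ± 0.38. Polycomb subunits had 5 of 17 called higher and 2 lower, with a median of 0.35; Cbx6 differed by 3.74 ± 0.21 and Pcgf2 by -3.67 ± 0.40. Trithorax and MLL subunits had 3 of 8 called higher and 1 lower, with a median of 1.11; Kdm6a differed by 2.25 ± 0.49 and Dpy30 by -2.45 ± 0.21. Cofactors had 1 of 5 called each way, Pbx3 higher (1.10 ± 0.27) and Pknox1 lower (-2.17 ± 0.50). Retinoic acid genes had 2 of 9 called higher, Crabp2 (2.03 ± 0.71) and Crabp1 (1.70 ± 0.49), and Aldh1a3 lower (-1.02 ± 0.36). These differences are on the quantile normalized scale and are relative to other transcripts; on the intensities as deposited, 1.524% of all probe sets were below 0.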

How the data were processed

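Per the labels' protocols, biotin-labelled copies of linearly amplified RNA were put on Affymetrix arrays. Each deposited value is a linear intensity of 1 probe set on 1 array. How the authors summarised probes, and whether they scaled arrays, is not stated in the labels or headers. Genes were named from the platform annotation and ordered with RefSeq's gene table for GRCm38.p6. The members and lists were chosen with earlier results of these data known.

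Values were taken as log2(value + 1.5), the 10th percentile of all values, and quantile normalized over 10 arrays, since the array medians spanned 2.946 log2 units. The added 1.5 shrinks differences of dim genes. Quantile normalization fixes the typical transcript at 0 between pools and can widen differences on the dim undertranslated arrays. There, Hoxa4 (97747_r_at) in replicate 1 had 36.9 in serum-treated and 38.2 in starved cells, which became log2 values of 8.31 and 7.25. The dimmest 25% of probe sets by mean level were dropped, and p-values were adjusted over the other 9316. limma 3.58.1 in R 4.3.3 fitted 6 polyribosome and cytoplasmic arrays (3 residual degrees of freedom) and 8 gradient arrays (4), two-sided, with Benjamini-Hochberg adjustment at 0.05. The number of arrays limits the precision. A fold against a side wholly below background is bounded by background, which is firm only where the other side lies wholly above it. The script was tested on simulated data, where the serum comparison within undertranslated RNA made more false calls than its threshold allows.

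Replicate 2 of each gradient group marks the thiouridine cultures, per the labels' protocols, and arrays of both gradient pools with the same number may come from the same cultures. Deviations of same-numbered arrays correlated at r = 0.28 across probe sets for the pair of polyribosome groups, with r from 0.02 to 0.05 for every other pair of gradient groups. The replicate number as a block was an alternative, as were median centring, deposited values, pseudocounts of 1 and 16, other filters and backgrounds, no variance trend and leaving out each array. Chosen after seeing the data were a fit of the 4 polyribosome arrays alone, counts without _r_at and _f_at probe sets, and counts restricted to members above background on all arrays. Each member called in a comparison was named with its values, as were up to 8 of the largest differences of the 6-array serum fit and of polyribosome against undertranslated RNA among members above background on all arrays of both sides, with the brightest probe set speaking for each gene; other lists are given by counts, up to 3 called members and fixed genes. Atf1 was not checked. Nuclear RNA was not analysed here.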

Additional observations from a re-analysis of the deposited data

How the results depend on the processing

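The count of 0 Hox calls with serum in polyribosome and cytoplasmic RNA, 0 in polyribosome RNA and 0 for the interaction stayed at 0 under all alternatives run for them. With the replicate block the Hox counts were 0, 11, 0, 0, 0 and 0 for serum in polyribosome and cytoplasmic RNA, polyribosome against undertranslated RNA, serum in undertranslated RNA, serum in polyribosome RNA, the interaction and polyribosome against cytoplasmic RNA; between polyribosome and undertranslated RNA the block added the calls of Hoxd8 (160460_at, adjusted p = 0.0223) and Hoxd11 (adjusted p = 0.0493), and it changed no other Hox call in these comparisons. Hox calls between polyribosome and undertranslated RNA were 9 in the main analysis and 20 as deposited, against 5044 and 8595 of all probe sets. They were 6 to 16 when single arrays were left out, against 3752 to 6026 of all. Leaving members out of the main fit gave 5 without _r_at and _f_at probe sets, and 4 among members above background on all arrays compared. Hox calls with serum in undertranslated RNA, 0 in the main analysis, were 0 to 7 when single arrays were left out. Between polyribosome and cytoplasmic RNA Hox calls were 17 as deposited and 1 without the filter, against 0 in the main analysis. As deposited, 7066 of all probe sets were called higher and 87 lower. The counts of 5 and 4 are lower because members were left out, with no call changed among those kept. The cause of the other changes was not tested.

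As deposited, the polyribosome against undertranslated difference turned positive for Hoxa2 (1.60), Hoxa3 (0.55), Hoxa4 (162402_r_at, 0.46, and 97747_r_at, 1.73), Hoxa6 (1.03), Hoxa11 (1.02), Hoxb1 (0.39), Hoxb3 (1.13), Hoxb7 (2.13), Hoxb8 (0.34) and Hoxd8 (160460_at, 3.00), the scale on which all probe sets had a median of 3.02. Hoxd8 was 0.54 with median centring, and Hoxa4 (97747_r_at) lost its call there (adjusted p = 0.0723). Leaving out serum-treated polyribosome replicate 2 turned Hoxb6 in the serum comparison, whose range over single arrays left out was -0.37 to 0.009.

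Detection is limited by signal over background, most in undertranslated RNA. With 1.5 times the background, 8 Hox probe sets (21.05%) were above it in serum-treated cytoplasmic RNA, against 48.5% of all probe sets. In undertranslated RNA 5 (13.16%) were above it for serum-treated cells, against 24.57%, and 7 (18.42%) for starved cells, against 36.64%. With the second highest control, 16 (42.11%) were above it in serum-treated undertranslated RNA, against 42.34% of all. In starved undertranslated RNA this gave 14 (36.84%), against 48.13%. Counting at least 1 array of a group gave 20 (52.63%) in serum-treated undertranslated RNA, against 53.77% of all, and 23 (60.53%) in starved, against 61.12%. The gap between Hox and all probe sets in undertranslated RNA thus depended on the rule for background.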
